A study of Mus musculus with 8 samples.

Results

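A set of 9 genes of neurotrophic signaling, Bdnf, Ntf3, Ngfr, Gdnf, Nrtn, Artn, Gfra1, Cntfr and Lifr, was compared between the mouse cornea and limbus. They were chosen by symbol, as genes of the neurotrophin, GDNF and LIF/CNTF families that bear on corneal innervation, and are 9 of the 23420 named genes in the table. All 9 had reads in both tissues. Both tissues came from wild-type C57BL/6J mice of 8 weeks of age, with no treatment in either. The cornea group is the corneal button, the central cornea inside the limbus, and the limbus group is the limbal rim, the ring between the cornea and the conjunctiva that houses the epithelial stem cells. Tissue from 16 eyeballs was dissected and pooled by tissue before RNA extraction, so a pool stands for each tissue and not for single mice. The labels number 4 samples per tissue in the way sequencing lanes are numbered. The table holds 1 cornea and 1 limbus library, so no difference here has a replicate check and no p-value is given.

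Neurotrophic factors are secreted proteins that keep sensory and sympathetic neurons alive and guide their axons to a tissue. Neurotrophins signal through the Trk receptor tyrosine kinases and the shared receptor p75, the GDNF family through the kinase RET together with a GPI-anchored GFRα co-receptor, and LIF and CNTF through the LIF receptor and gp130, to which CNTF adds its own α receptor. The cornea is among the most densely innervated tissues of the body. The cell bodies of its sensory nerves lie in the trigeminal ganglion, outside the dissected tissue, and its nerve trunks enter through the limbus.

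Named genes took 26104317 reads of the cornea library and 21182025 of the limbus library. These read numbers are derived values, worked back for each gene from the deposited mean of both libraries. For Bdnf, Gdnf and Nrtn the mean alone allowed 1 pair of reads, and for the other 6 genes the pair was picked among those it allowed by the deposited log2 fold change and its error. Where a pair of reads is given, the cornea comes first. Reads were divided by a size factor per library (1.034 for the cornea, 0.967 for the limbus), and the results are called normalized reads. Each ratio is limbus over cornea and carries a 95% confidence interval (CI) that was turned from the exact (Clopper-Pearson) binomial interval of its limbal reads. Without molecular identifiers PCR copies are not independent molecules, and the intervals therefore hold no more than counting error. A gene is called beyond counting error where this interval leaves out a ratio of 1, and called 2-fold where the ratio is also at least 2. Scaling to total reads in place of the size factors raised every log2 ratio by 0.21. Of the 49 genes of the pathway lists that were beyond counting error, 1 then changed direction, and it is none of those named here. In bulk tissue, fewer cells of a type and less RNA per cell cannot be told apart.

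Bdnf was the gene among the 9 that leaned most to the cornea and Cntfr the one that leaned most to the limbus. Bdnf was 4.51-fold higher in the cornea (95% CI, 2.33 to 9.57) and Cntfr was 12.6-fold higher in the limbus (95% CI, 7.02 to 25.1). Ntf3, Ngfr, Artn and Lifr were higher in the cornea by 1.62-fold to 1.92-fold, and Nrtn and Gfra1 were higher in the limbus by 1.94-fold and 1.51-fold. For Gdnf the interval included a ratio of 1. Beyond counting error, the cornea was higher for 5 of the 9 genes and the limbus for 3. Over all 13932 genes that averaged at least 10 normalized reads, these shares were 40.5% for the cornea and 36.0% for the limbus, so a difference of this kind was common among all genes. Past 2-fold, 1 of the 9 was higher in the cornea and 1 in the limbus, against 8.75% and 17.7% of all genes. The 9 genes had a median log2 ratio of -0.69, and all genes one of -0.037.

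**Figure D1:**
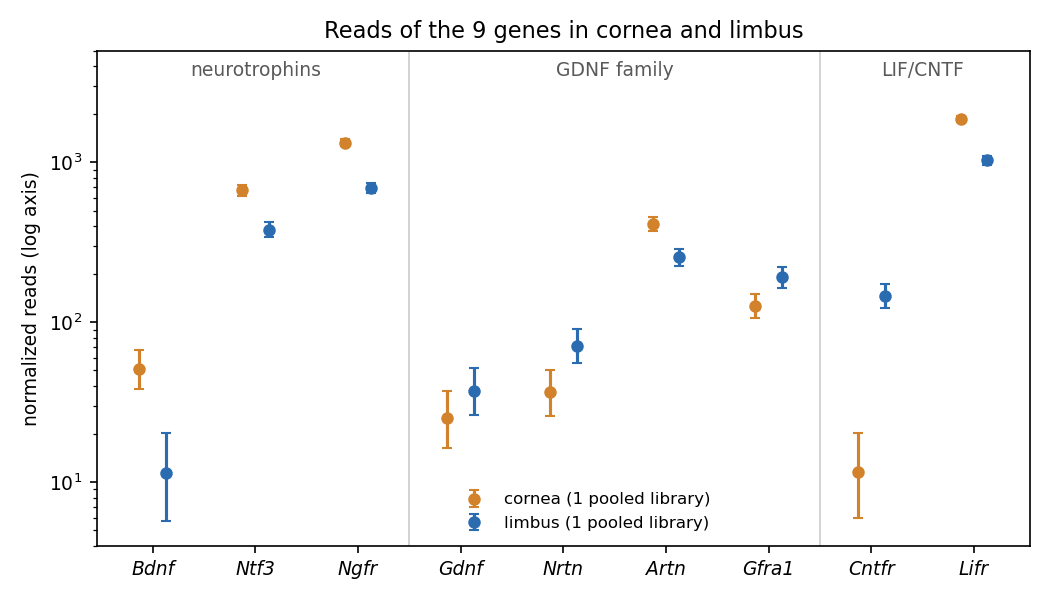
Normalized reads (log axis) of the 9 genes in the cornea library (orange) and the limbus library (blue), with bars for the exact 95% Poisson interval of the reads, which covers counting error only. Cntfr stands at 11.6 (cornea) and 147 (limbus) and Bdnf at 51.3 and 11.4, while the bars of Gdnf overlap.

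**Figure D2:**
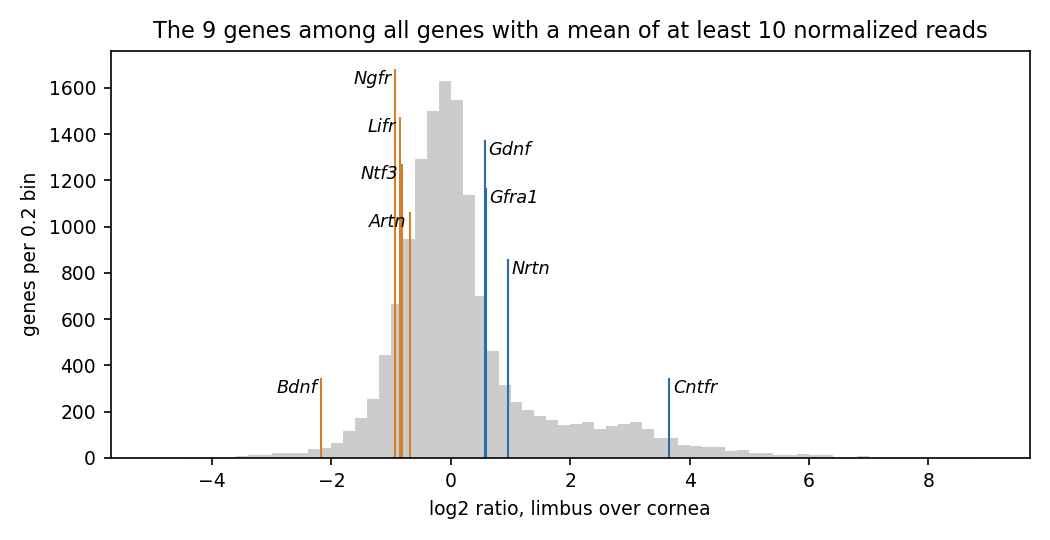
Histogram of the log2 ratio, limbus over cornea, of the 13932 genes that averaged at least 10 normalized reads (libraries at 3 reads or fewer set to 3), with vertical lines at the 9 genes, orange where the cornea is higher and blue where the limbus is higher. The heights of the lines only separate the names. Bdnf lies in the left tail, Cntfr in the right one, and the other 7 genes lie between -0.94 and 0.96.

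The annotated starts of the 9 genes were read from RefSeq (GRCm38.p6), which has a promoter window for each of them. The stretches below are the 250 bases before the start, given 5′ to 3′ on the gene's strand, for the 2 genes called 2-fold and for the 4 genes with a single start in that source. Capitals mark a GC box, GGGCGG on either strand, a motif that Sp1-type factors bind. For Bdnf, with 7 listed starts, and Cntfr, with 6, the start farthest 5′ is shown, since reads summed over a gene do not tell which start was used.
Bdnf: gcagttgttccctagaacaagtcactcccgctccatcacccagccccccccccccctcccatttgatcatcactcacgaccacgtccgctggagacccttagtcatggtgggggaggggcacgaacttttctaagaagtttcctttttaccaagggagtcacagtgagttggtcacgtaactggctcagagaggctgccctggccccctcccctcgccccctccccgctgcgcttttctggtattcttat
Cntfr: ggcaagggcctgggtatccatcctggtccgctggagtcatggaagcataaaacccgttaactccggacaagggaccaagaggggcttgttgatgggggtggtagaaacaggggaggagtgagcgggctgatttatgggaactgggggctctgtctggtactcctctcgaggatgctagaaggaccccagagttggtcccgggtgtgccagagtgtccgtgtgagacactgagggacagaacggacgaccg
Ngfr: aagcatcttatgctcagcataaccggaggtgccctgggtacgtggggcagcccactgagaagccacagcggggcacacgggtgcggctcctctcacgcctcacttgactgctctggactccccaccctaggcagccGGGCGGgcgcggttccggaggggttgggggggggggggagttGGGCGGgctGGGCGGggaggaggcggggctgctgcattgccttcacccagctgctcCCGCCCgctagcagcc
Artn: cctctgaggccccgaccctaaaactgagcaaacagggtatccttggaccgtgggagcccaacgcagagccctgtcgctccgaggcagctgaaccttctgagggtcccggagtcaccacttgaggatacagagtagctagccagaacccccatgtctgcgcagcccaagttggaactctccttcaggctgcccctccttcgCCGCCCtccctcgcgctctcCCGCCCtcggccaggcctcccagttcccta
Nrtn: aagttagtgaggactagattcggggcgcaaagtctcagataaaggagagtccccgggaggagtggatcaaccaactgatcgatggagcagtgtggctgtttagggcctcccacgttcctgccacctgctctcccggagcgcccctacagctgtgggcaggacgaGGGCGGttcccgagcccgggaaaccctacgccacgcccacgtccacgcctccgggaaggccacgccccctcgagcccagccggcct
Gfra1: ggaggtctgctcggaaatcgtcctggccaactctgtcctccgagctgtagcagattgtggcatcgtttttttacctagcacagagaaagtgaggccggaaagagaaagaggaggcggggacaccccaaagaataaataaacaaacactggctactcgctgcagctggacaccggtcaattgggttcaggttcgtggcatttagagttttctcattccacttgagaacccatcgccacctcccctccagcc
These windows lie at chr2:109674450-109674699 (plus strand) for Bdnf and, on the minus strand, at chr4:41696038-41696287 for Cntfr, chr11:95587699-95587948 for Ngfr, chr4:117929764-117930013 for Artn, chr17:56757549-56757798 for Nrtn and chr19:58455399-58455648 for Gfra1. By the GENCODE M21 positions given below, the windows of Gfra1 and Cntfr lie inside the gene, and that of Ngfr overlaps its gene in part. For these genes GENCODE thus has a start farther 5′ than the RefSeq start used here. The window of Ngfr held 4 GC boxes, that of Artn 2 and that of Nrtn 1. The windows shown for Bdnf, Cntfr and Gfra1 held none, although other starts of Bdnf and Cntfr did hold a GC box. Over all starts of the 9 genes, 11 of 23 windows held a GC box, compared with 32.7% of the 32851 windows of all genes. A TATA box (TATAAA) was found in 1 of the 23 windows, that of Gdnf, and in 12.4% of all windows. The CCAAT box (CCAAT) was in 4 of the 23 and in 33.8% of all. The full cAMP response element (TGACGTCA) was in none of the 23 and in 1.55% of all. The AP-1 motif TGANTCA and the STAT motif TTCNNNGAA were each in 1 window, both of Bdnf, and in 6.75% and 7.02% of all windows. All motifs were searched on both strands, none of them contains another, and a match only describes the letters.

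Of the neurotrophin ligands, Bdnf and Ntf3 were higher in the cornea while Ntf5 was higher in the limbus, all beyond counting error. Bdnf (ENSMUSG00000048482, chr2:109674700-109727007, plus strand), the ligand of TrkB, was covered by 53 cornea reads and 11 limbus reads (log2 ratio -2.17, 95% CI, -3.26 to -1.22). Of all genes tested, 1.07% had a lower ratio. Positions here and below are from GENCODE M21 (GRCm38), where Bdnf overlaps 1 antisense gene. Ntf3 (ENSMUSG00000049107, chr6:126101412-126166910, minus strand), the ligand of TrkC, was covered by 692 cornea reads and 368 limbus reads (log2 ratio -0.82, 95% CI, -1.0 to -0.63). Thus Ntf3 stayed under 2-fold, but with many more reads than Bdnf its interval was narrower. Ntf5, which encodes neurotrophin-4, another ligand of TrkB, had 105 cornea reads and 161 limbus reads and was 1.64-fold higher in the limbus (95% CI, 1.27 to 2.12). Hence both TrkB ligands were detected in each tissue, but Bdnf was higher in the cornea and Ntf5 in the limbus.

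Levels of different genes were compared as normalized reads per kilobase (kb) of merged exons. In the cornea, Ntf3 stood at 391 normalized reads per kb (95% CI, 362 to 421), Ntf5 at 38.3 (95% CI, 31.3 to 46.3) and Bdnf at 8.25 (95% CI, 6.18 to 10.8). In the limbus, Ntf3 stood at 222 (95% CI, 199.8 to 246), Ntf5 at 62.7 (95% CI, 53.4 to 73.2) and Bdnf at 1.83 (95% CI, 0.913 to 3.27). Of these 3, Ntf3 had the highest level per length in both tissues and Bdnf the lowest, with intervals that did not overlap.

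Of the 6 neurotrophin receptor genes with enough reads, a mean of at least 10 after normalization, the 3 with the most reads were higher in the cornea and the other 3 in the limbus, all beyond counting error. Over all genes tested, these shares were 40.5% for the cornea and 36.0% for the limbus. Ngfr (ENSMUSG00000000120, chr11:95568818-95587735, minus strand), which encodes p75, the receptor shared by all neurotrophins, was covered by 1375 cornea reads and 671 limbus reads. Its log2 ratio was -0.94 (95% CI, -1.07 to -0.81), 1.92-fold higher in the cornea, and 10.1% of all genes had a lower ratio. Ntrk2, which encodes TrkB, had 2365 and 1409 reads and was 1.57-fold higher in the cornea (95% CI, 1.47 to 1.68). Sort1, the sortilin that partners p75 for proneurotrophins, had 2537 and 1768 reads and was 1.34-fold higher in the cornea (95% CI, 1.26 to 1.43). These 3 receptors leaned the same way as Bdnf and Ntf3.

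Ntrk3, which encodes TrkC, went the other way, with 15 cornea reads and 170 limbus reads, 12.1-fold higher in the limbus (95% CI, 7.14 to 22.1). Its preferred ligand Ntf3 was higher in the cornea. The sortilin relative Sorcs2 had 18 and 125 reads and was 7.42-fold higher in the limbus (95% CI, 4.51 to 12.9). Sorcs1, another of them, had 0 and 22 reads and was at least 7.84-fold higher in the limbus against a floor of 3 reads per library, the number that a count of 0 allows. Sorcs1 passed the minimum mean only through its limbal reads, so its side was fixed by that filter. Tnfrsf19, a TNF receptor family member that can take the place of p75 in the Nogo receptor complex, had 89 and 273 reads and was 3.28-fold higher in the limbus (95% CI, 2.57 to 4.21). Of the 7 genes for p75 co-receptors and adaptors with enough reads, it was the one past 2-fold, while beyond counting error the limbus was higher for 3 and the cornea for 2. The latter shares over all genes tested were 36.0% and 40.5%.

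Per length of merged exons, p75 stood above the Trk receptors in both tissues, by a margin that depended on the length used. In the cornea, Ngfr was at 386 normalized reads per kb (95% CI, 366 to 407), Sort1 at 324, Ntrk2 at 119 and Ntrk3 at 0.481. In the limbus, the levels were 201 for Ngfr (95% CI, 186 to 217), 241 for Sort1, 75.5 for Ntrk2 and 5.82 for Ntrk3. Sort1 was thus below Ngfr in the cornea and above it in the limbus, with intervals that did not overlap in either tissue. With the length of the longest transcript, Ntrk2 stood at 262 in the cornea and 167 in the limbus, against 386 and 201 for Ngfr, closer than with merged exons. Exons were merged over all annotated transcripts, and reads per gene do not separate full-length from truncated receptors.

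Of the GDNF family ligands, Artn was higher in the cornea and Nrtn in the limbus. Artn (ENSMUSG00000028539, chr4:117926162-117929763, minus strand), artemin, the ligand of GFRα3, was covered by 427 cornea reads and 247 limbus reads (log2 ratio -0.69, 95% CI, -0.93 to -0.46). Nrtn (ENSMUSG00000039481, chr17:56751325-56757530, minus strand), neurturin, the ligand of GFRα2, had 38 and 69 reads, a log2 ratio of 0.96 (95% CI, 0.36 to 1.57), which is 1.94-fold higher in the limbus. It became a 2-fold call when reads were scaled to the totals, at a log2 ratio of 1.16. Gdnf (ENSMUSG00000022144, chr15:7810846-7837575, plus strand), the ligand of GFRα1, had 26 and 36 reads, a log2 ratio of 0.57 (95% CI, -0.20 to 1.35), so no difference was detectable at this depth. When reads were scaled to the totals, the lower end of its interval was 0.003 and thus just left out a ratio of 1.

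All 6 receptor genes of the GDNF family with enough reads lay on the limbal side beyond counting error, 5 of them past 2-fold (36.0% and 17.7% of all genes), and the median log2 ratio of the 6 was 2.13. Of these, Gfra2, Gfra3 and Gfra4 had fewer than 10 normalized reads in the cornea and passed the minimum mean only through the limbus. Their side was thus fixed by the filter, which limits the count and the median. Gfra1 (ENSMUSG00000025089, chr19:58235604-58455909, minus strand), the co-receptor of GDNF, which also overlaps 1 antisense gene, differed least, with 131 cornea reads and 185 limbus reads (log2 ratio 0.59, 95% CI, 0.26 to 0.93). Ret, the signaling kinase shared by the family, had 170 and 506 reads and was 3.18-fold higher in the limbus (95% CI, 2.67 to 3.81). Gfra2, the co-receptor of neurturin, had 3 and 194 reads, a ratio of 69.1 (95% CI, 23.3 to 338). Gfra3, the co-receptor of artemin, had 0 and 66 reads and was at least 23.5-fold higher in the limbus against the floor of 3 reads. Artn and its co-receptor gene were therefore on opposite sides, Artn with more reads in the cornea and Gfra3 with none there.

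Gfra4, the co-receptor of persephin, had 4 and 21 reads and was 5.61-fold higher in the limbus (95% CI, 1.89 to 22.5). Ncam1, a cell adhesion molecule that can bind GDNF with GFRα1 in the absence of RET, had 147 and 472 reads and was 3.43-fold higher in the limbus (95% CI, 2.85 to 4.16). Per length, Gfra1 and Ret were close in the cornea, at 23.1 (95% CI, 19.3 to 27.5) and 24.3 (95% CI, 20.8 to 28.3) normalized reads per kb. In the limbus, Ret was at 77.3, Gfra2 at 56.7, Gfra1 at 34.9 and Gfra3 at 34.2, and the intervals of Gfra1 (30.1 to 40.3) and Gfra3 (26.4 to 43.5) overlapped. Gfra1 was thus the GFRα gene with the highest level in the cornea, whereas in the limbus Gfra2 lay above it.

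**Figure D3:**
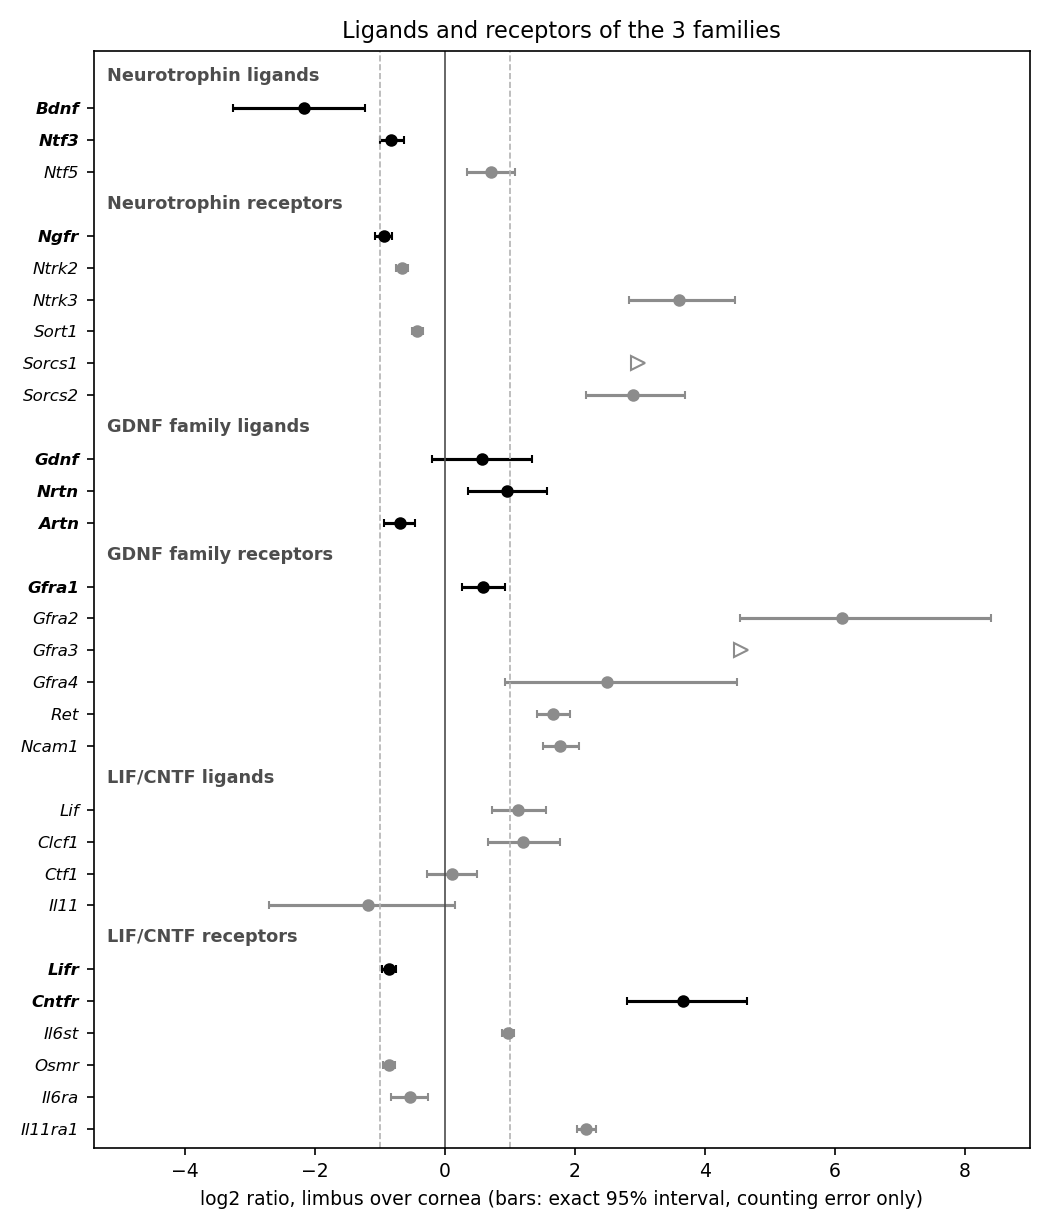
Log2 ratio, limbus over cornea, of ligand and receptor genes of the 3 families with a mean of at least 10 normalized reads, with bars for the exact 95% interval. Bold names and black points are the 9 genes and gray points their partners, open triangles are lower bounds for genes with 0 cornea reads, and dashed lines mark 2-fold. All 6 receptor genes of the GDNF family lie right of 0, while Ngfr, Ntrk2, Sort1 and Lifr lie left of it. Gfra2, Gfra3 and Gfra4 passed the minimum mean only through their limbal reads.

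Of the receptors for LIF and CNTF, Lifr and Cntfr differed in opposite directions. Lifr (ENSMUSG00000054263, chr15:7090614-7197489, plus strand), the signaling subunit shared by LIF and CNTF, was covered by 1932 cornea reads and 996 limbus reads (log2 ratio -0.86, 95% CI, -0.97 to -0.75), 1.82-fold higher in the cornea. Cntfr (ENSMUSG00000028444, chr4:41657498-41697089, minus strand), the GPI-anchored α subunit that binds CNTF, had 12 and 142 reads, a log2 ratio of 3.66 (95% CI, 2.81 to 4.65). Of all genes tested, 96.6% had a lower ratio than Cntfr. Il6st, which encodes gp130, the subunit common to the family, had 1506 and 2755 reads and was 1.95-fold higher in the limbus (95% CI, 1.84 to 2.08). Osmr, the oncostatin M receptor and the other partner of gp130 close to Lifr, had 2458 and 1272 reads and was 1.81-fold higher in the cornea (95% CI, 1.69 to 1.94). Il11ra1, the α receptor of IL-11, had 483 and 2035 reads and was 4.5-fold higher in the limbus (95% CI, 4.08 to 4.98). Il6ra, the α receptor of IL-6, picked for mention with its values known, was covered by 272 and 175 reads and was 1.45-fold higher in the cornea (95% CI, 1.2 to 1.77). Hence the α receptors did not share a direction, and of the 6 receptor genes 3 were higher in each tissue beyond counting error. Over all genes tested, 36.0% were limbus-higher and 40.5% cornea-higher in this way.

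Of the 5 ligand genes of this family with enough reads, the limbus was higher for 2 beyond counting error, Lif and Clcf1, and the cornea for 1. The other 2 did not differ beyond counting error, and the median log2 ratio of the 5 was 0.11. Over all genes tested, 36.0% were limbus-higher and 40.5% cornea-higher beyond counting error. Lif had 74 cornea reads and 152 limbus reads and was 2.20-fold higher in the limbus (95% CI, 1.65 to 2.94). Clcf1, which encodes a second ligand of the CNTF receptor, had 43 and 93 reads and was 2.31-fold higher in the limbus (95% CI, 1.59 to 3.40). Cntf itself had 5 and 6 reads (ratio 1.28, 95% CI, 0.326 to 5.31), below the minimum mean, and no difference was detectable at this depth. Socs3, the feedback inhibitor that STAT3 induces below gp130, had 19 and 187 reads and was 10.5-fold higher in the limbus (95% CI, 6.55 to 17.9). It was the one gene past 2-fold among the 6 of the JAK-STAT branch, of which 3 others were higher in the cornea beyond counting error. When reads were scaled to the totals, 1 of these 3 changed direction.

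Per length, Lifr stood at 173 normalized reads per kb in the cornea (95% CI, 166 to 181), above Il6st at 131 and far above Cntfr at 4.17 (95% CI, 2.16 to 7.29). In the limbus, Il6st at 257 (95% CI, 247 to 266) was above Lifr at 95.5 (95% CI, 89.7 to 102) and Cntfr at 52.8 (95% CI, 44.4 to 62.2).

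Ranked by level per kb among themselves, 7 of the 9 genes kept nearly the same order in both tissues, and Bdnf and Cntfr changed places around them. Of the 7, Lifr and Artn exchanged ranks, and their intervals overlapped in each tissue. In the cornea the order was Ntf3, Ngfr, Lifr, Artn, Nrtn, Gfra1, Bdnf, Gdnf and Cntfr. The intervals of neighbors overlapped for Ntf3 and Ngfr, for Lifr and Artn (172), for Nrtn (35.9) and Gfra1, for Bdnf and Gdnf (6.85), and for Gdnf and Cntfr, so these neighbors did not differ beyond counting error. In the limbus the order was Ntf3, Ngfr, Artn (106), Lifr, Nrtn (69.7), Cntfr, Gfra1, Gdnf (10.1) and Bdnf. There the overlapping neighbors were Ntf3 and Ngfr, Artn and Lifr, and Nrtn and Cntfr. With the length of the longest transcript in place of merged exons, Nrtn and Cntfr exchanged their places in the limbus and no other rank moved.

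Set against all genes with an exon length, 13099 of those tested, the levels of the 9 genes were spread widely. The median gene stood at 105 normalized reads per kb in the cornea, against 99.6 in the limbus. In the cornea, 79.6% of these genes had a lower level than Ntf3, 62.2% a lower one than Lifr, 24.7% a lower one than Gfra1 and 10.7% a lower one than Cntfr. In the limbus the shares were 69.6% for Ntf3, 48.9% for Lifr, 27.5% for Gfra1, 35.2% for Cntfr and 0.779% for Bdnf. Bdnf was thus near the bottom of the tested genes in the limbus, while in the cornea 15.4% lay below it.

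**Figure D4:**
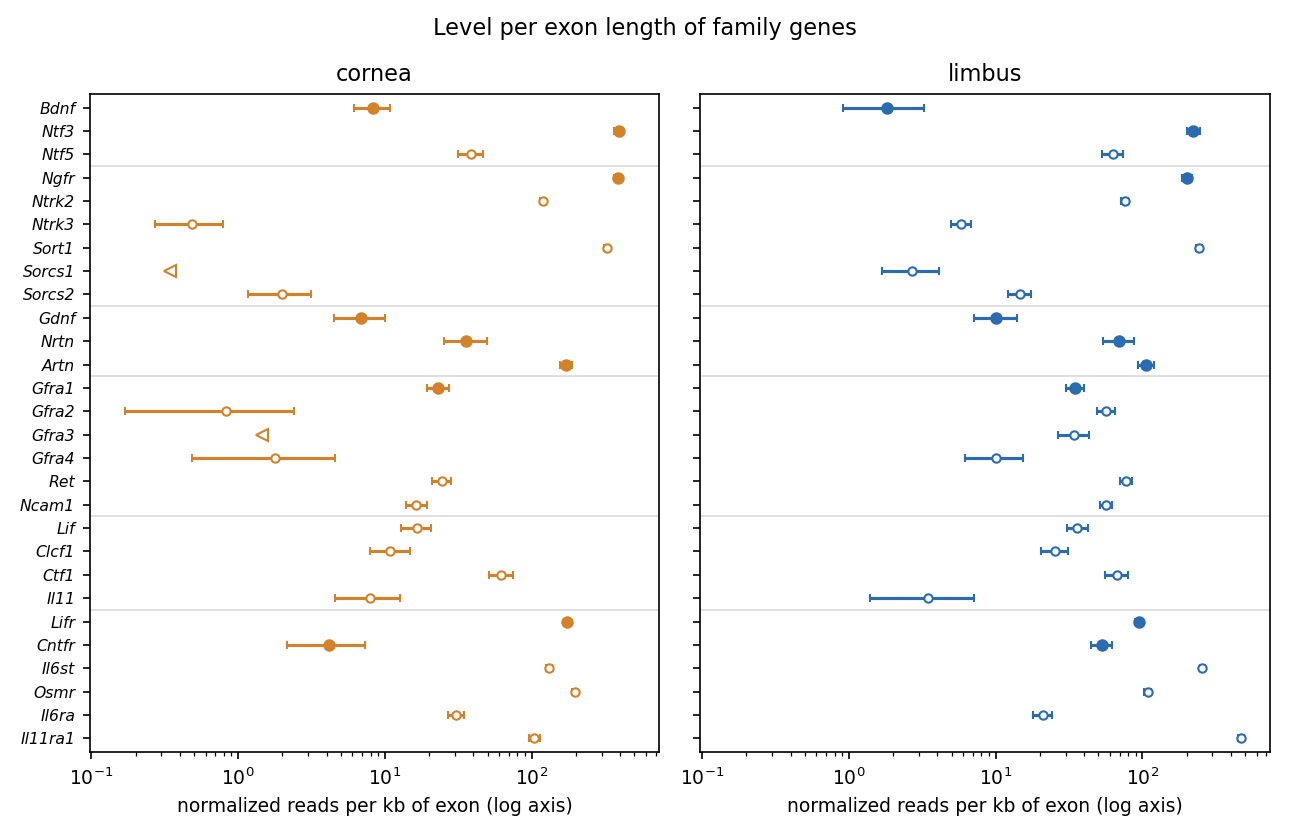
Normalized reads per kb of merged exons (log axis) of ligand and receptor genes of the 3 families, in the cornea (left) and limbus (right), with bars for the exact 95% Poisson interval. Filled points are the 9 genes, open points their partners, open triangles the upper limit for a count of 0 (3 reads), and gray lines separate ligands and receptors of each family. Ntf3 and Ngfr lie highest among the filled points in both tissues, and Gfra2 and Gfra3 lie below 2 in the cornea and above 30 in the limbus.

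Over the 10 pathway lists, which hold 66 genes with the 9 among them, 56 had a mean of at least 10 normalized reads. Beyond counting error, the limbus was higher for 32 of these and the cornea for 17, where 36.0% and 40.5% of all genes were. Past 2-fold were 22 in the limbus and 2 in the cornea, against 17.7% and 8.75% of all genes. The median log2 ratio of the 56 was 0.72. Of the 22, Sorcs1, Gfra2, Gfra3 and Gfra4 passed the minimum mean only through their limbal reads. Apart from Bdnf, the gene past 2-fold in the cornea was Cdnf, an endoplasmic reticulum protein with neurotrophic activity, with 167 and 76 reads (2.06-fold higher in the cornea, 95% CI, 1.56 to 2.73). When reads were scaled to the totals, Cdnf was no longer past 2-fold. Of the 8 other neurotrophic growth factors, 5 passed 2-fold in the limbus. These were the heparin-binding factors Ptn, with 122 and 718 reads, and Mdk, with 110 and 595 reads, the secreted factor Nenf, with 585 and 1194 reads, the vascular growth factor Vegfa, with 193 and 510 reads, and Igf1, with 11 and 131 reads. Of the 5 proneurotrophin processing genes with enough reads, all were limbus-higher beyond counting error. Among those past 2-fold was the convertase Pcsk5 (20 and 76 reads, 4.06-fold). Thus most genes of these lists, which include the 9, leaned to the limbus. Without the 9, the limbal side held 29 of 47 genes and the corneal side 12. Of the 9 genes, 5 leaned to the cornea, among them Ngfr and Lifr, where 40.5% of all genes did. Past 2-fold, 1 of the 9 lay on each side.

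Markers of several other cell types were higher in the limbus. A marker with fewer than 10 normalized reads in the cornea could pass the minimum mean only through the limbus. Its side was then fixed by the filter, as for Sox10, Foxd3 and all the skeletal muscle markers. Of 14 Schwann cell markers, 13 had a mean of at least 10, and all 13 were limbus-higher beyond counting error, 10 of them past 2-fold. Their summed level was 7665 normalized reads in the cornea against 11772 in the limbus, mostly from Mbp (4334 and 5495 reads) and Erbb3 (2710 and 2689 reads), which differed little. Of the defining ones, Sox10 had 2 and 115 reads, and Foxd3 was at 0 in the cornea. Ngfr, which Schwann cells also carry, went against these markers and was higher in the cornea. All 8 skeletal muscle markers were past 2-fold higher in the limbus, at a summed 45.5 normalized reads in the cornea against 10573 in the limbus. Of the 6 blood vessel markers, 5 were past 2-fold in the limbus, and they summed to 195 and 2604.

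The limbal lean of Ret, Gfra2, Gfra3, Ntrk3 and Cntfr went with these lists, and the part of nerve sheath, muscle and vessel in them was not tested. Of 12 sensory neuron markers, 4 had a mean of at least 10, and these were past 2-fold higher in the limbus. Among the 4, Nefl and Nefm passed the minimum mean only through their limbal reads. The 12 summed to 33.9 in the cornea against 371 in the limbus, and 6 of them, Prph, Nefm, Scn9a, Scn10a, Trpv1 and Calca, were at 0 in the cornea. In the limbus, Nefm had 152 reads, but Prph and Calca had 5 each, Scn10a and Trpv1 1 each and Scn9a 0. Of these 6, Nefm alone had a mean of at least 10. Smooth muscle and pericyte markers (4 of 5 past 2-fold in the limbus, Des at 0 in the cornea) summed to 5620.3 and 5194. Most of both sums came from Notch3 (5755 and 3349 reads), which was higher in the cornea, while Acta2 had 40 and 730 reads. Melanocyte markers (5 of 6) summed to 334 and 1700, and macrophage and leukocyte markers (3 of 6) to 6382 and 10559. Most of the latter sums came from Itgam (6003 and 8793 reads). Ptprc had only 30 and 72 reads and Csf1r 74 and 465, so these sums say little about the list as a whole. Fibroblast markers (4 of 6) summed to 17155 and 38936, mostly from Col1a1. The other 2 fibroblast markers, Pdgfra and Dpt, were higher in the cornea beyond counting error.

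The labelled tissues were checked against their epithelial markers. Krt12, the keratin of the differentiated corneal epithelium, had 1137735 cornea reads and 233324 limbus reads, and Krt15, a keratin of limbal basal cells, had 37738 and 353826. Of 5 corneal epithelial markers, 4 were higher in the cornea beyond counting error, 2 of them past 2-fold. The remaining one, Clu, was higher in the limbus, with 6544 and 11359 reads. Of 5 limbal and conjunctival epithelial markers, all were past 2-fold higher in the limbus. The first list summed to 2332768 and 976124 normalized reads and the second to 83956 and 651646. Keratocyte markers were split, 2 higher in each tissue beyond counting error, and summed to 57033 and 59548. Kera had 12119 and 1423 reads and Aldh1a1 7369 and 1548, while Ptgds had 186 and 1950. The corneal lean of Bdnf, Ntf3, Ngfr, Artn and Lifr had the direction of 4 of the 5 corneal epithelial markers, and also of Kera and Aldh1a1. How far it follows from a larger share of corneal epithelium or of keratocytes was not tested.

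**Figure D5:**
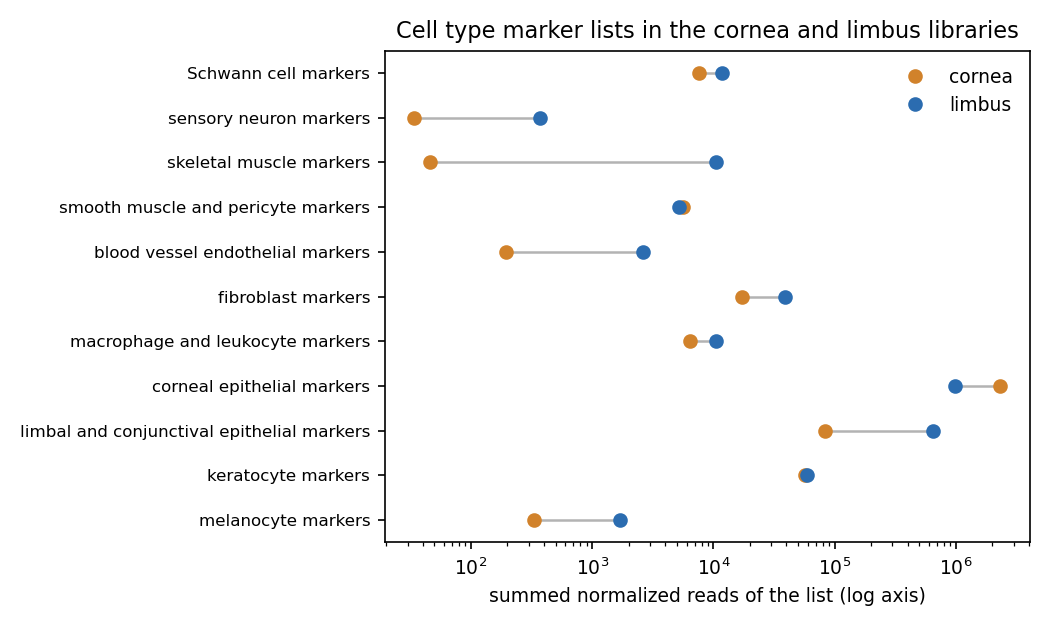
Summed normalized reads (log axis) of the 11 cell type marker lists in the cornea library (orange) and the limbus library (blue), a point per library joined by a gray line. Skeletal muscle markers sum to 45.5 (cornea) and 10573 (limbus), and corneal epithelial markers to 2332768 and 976124.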

How the data were processed

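RNA of limbal rims and corneal buttons, pooled by tissue, was sequenced as stranded total RNA libraries with paired-end reads. Per the methods, the authors trimmed adaptors, used GRCm38 (mm10, the builds also in the submitters' processing notes) in CLC Genomics Workbench 20, and normalized with trimmed means of M-values. Whether strand was counted is not given in the sources used here, so the antisense genes overlapping Bdnf and Gfra1 limit their values. The authors deposited 1 table with the mean normalized signal of 2 libraries per gene, and a shrunken log2 fold change, its standard error and p-values, which are not reported here. Rows without a gene name (17484 of 40904) were left out.

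The deposited signal allows only certain pairs of whole reads, and among them the pair was taken whose modeled log2 fold change and error came closest to those the authors deposited. Both were met within 0.001 in sum for 17439 of 17442 genes (99.98%), and for Bdnf, Gdnf and Nrtn the mean alone allowed 1 pair. On simulated data of this comparison the reads of all 17058 genes were found exactly, which covers the search for pairs only. Whether the authors' software follows the modeled steps was not tested this way. Read numbers are thus derived values.

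Genes with a mean of at least 10 normalized reads were tested, with 3 as the lowest read number in calls. Alternatives were scaling to total reads, a trimmed mean of log ratios (30% and 5% trims), a pseudocount of 1, no minimum and a minimum of 50. Positions and exon lengths are from GENCODE M21, promoter windows from RefSeq. Named are the 9 genes, pathway genes called 2-fold and direct binding partners, but values of some of the listed genes are not reported here. Genes and lists were chosen with earlier results of these data known. Python 3.11.15, numpy 2.4.6, scipy 1.17.1 and pandas 2.3.3 were used.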

Additional observations from a re-analysis of the deposited data

How the results depend on the processing

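No paired analysis was possible because the table holds 1 library per tissue and no value for a numbered sample, and for the same reason no replicate could be left out. The 9 genes kept their direction under each scaling and the pseudocount. Scaling to total reads moved the log2 ratio of Ntf3 to -0.61, of Ngfr to -0.73 and of Lifr to -0.65, outside their counting intervals, and the median of the 9 genes to -0.49. It made 2 of them past 2-fold in the limbus, Nrtn joining Cntfr, and brought the interval of Gdnf to 0.003 and above. Under it, 764 of all genes were past 2-fold in the cornea, the median of all genes turned to 0.17, and the pathway lists had a median of 0.93 and 1 gene past 2-fold in the cornea. Without a minimum the median of all genes turned to 0.014. With a minimum mean of 50, 1417 of all genes were past 2-fold in the limbus, and 0 of the 9 genes and 1 gene of the pathway lists were in the cornea, since Bdnf and Gdnf had means of 31.3 and 31.2 and were no longer tested. Of the other values, 59 of the main results and 253 of the single lists, genes and ranks stayed within the limits set for them, and 15 of the latter moved. Of the 9 genes, Gdnf had the fewest reads, 62 in both libraries together, and of the partners named Cntf, Gfra4 and Sorcs1 had fewer still.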
